A study of Mus musculus with 12 samples.

Results

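The cytosolic ribosomal protein genes encode the proteins of the ribosome that translates nuclear-encoded mRNAs. They were taken by name, as symbols that begin with Rpl or Rps and a digit together with Rplp0, Rplp1, Rplp2 and Rpsa, leaving out the ribosomal S6 kinases (Rps6k), Rps19bp1 and symbols marked as pseudogenes. The pattern found 87 of the 24421 gene symbols in the table, 53 for the large and 34 for the small subunit. Of these, 77 were the canonical gene of their protein and 10 were second genes, that is paralogs or retrocopies of a canonical gene. With a mean of at least 1 FPKM over the libraries (FPKM scales fragment counts by transcript length and library total), 84 of the 87 entered the tests. Rpl10l, Rpl39l and Rpl26 did not.

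The libraries came from total RNA of 12 murine 425-ICC tumours, a mouse model of intrahepatic cholangiocarcinoma, a tumour of the bile ducts within the liver, after 8 days of treatment. There were 4 groups of 3 libraries. Control tumours had received IgG, GC tumours had received GC (a chemotherapy by the title, for which the labels give only the abbreviation), ICB tumours had received dual immune checkpoint blockade (by the title, against CTLA-4 and PD1), and Combination tumours had received GC with dual ICB. The labels give no strain, age or sex, and do not state whether the libraries of a group are from different animals. The p-values therefore measure the spread between libraries only, and that spread may be technical.

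Each ribosome holds 1 copy of nearly every ribosomal protein, and cells make the proteins in matching amounts. Much of that matching is done in translation: ribosomal protein mRNAs begin with a run of pyrimidines, the terminal oligopyrimidine motif, through which mTOR and LARP1 set how fast they are translated. Their mRNAs are among the most abundant in growing cells, and a few of the proteins, such as Rpl5 and Rpl11, also bind Mdm2 when ribosome assembly is disturbed. FPKM measures only the share of the mRNA pool and says nothing of translation.

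The annotated start is shown for 6 genes on which the results below turn, because their marked pyrimidine runs differ. Rps12, Rpl36al and Rpl3l had no match to the pyrimidine start as counted below. Each window is 30 bases of the sense strand from RefSeq on GRCm38.p6, with 15 bases from the annotated start on. Capitals mark the longest run of C and T that reaches within 5 bases of that start, or the first of them where several are equally long, as in Rps27rt, Rps12 and Rpl36al. The unmarked run of equal length in Rps27rt, ctttcc at the annotated start, and the bases after it are also found in the window of Rps27.
Rpl12 (chr2:32961697-32961726, + strand): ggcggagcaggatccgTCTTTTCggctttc
Rps27 (chr3:90213634-90213663, - strand): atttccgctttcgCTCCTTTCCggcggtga
Rps27rt (chr9:114982725-114982754, - strand): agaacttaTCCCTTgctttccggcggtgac
Rps12 (chr10:23787195-23787224, - strand): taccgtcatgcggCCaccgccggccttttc
Rpl36al (chr12:69184053-69184082, - strand): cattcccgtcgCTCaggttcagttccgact
Rpl3l (chr17:24727811-24727840, + strand, the first of its annotated starts): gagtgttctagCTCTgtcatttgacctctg
Promoter sequence was found for 57 of the 77 canonical genes. A C within 5 bases of an annotated start that opened at least 5 C or T in a row was present in 27 of the 57 (47.4%), against 21.2% of 27025 genes and 25% of 68 mitochondrial ribosomal protein genes. The Ets-type motif CGGAAG, searched on both strands in the 250 bases before and 50 after the start, was present in 40 of the 57 (70.2%), against 18.8% of all genes and 55.9% of the mitochondrial set. The YY1-type motif AAGATGGC, searched in the same way, was present in 5 of the 57 (8.77%), against 3.19% of all genes and 17.6% of the mitochondrial set. These are matches of letters, not bound sites. Rps12 had no match at its annotated start although its window holds a pyrimidine run further on, so the count depends on where the start was annotated.

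Facts of the whole series that touch these genes were as follows. FPKM summed to 547146 to 660067 per library, read counts were not recoverable from the values, and the depth is unknown. Of the biliary and tumour markers, Sox9 and Spp1 were present in all 12 libraries, at 7.56 to 91.9 and 276 to 7598 FPKM. Krt19 was listed at 0 in Control 2 and 3, Epcam was listed at 0 in Control 3 and ICB 1, and both were highest in Combination 1, at 48.3 and 126 FPKM. Libraries also stood apart in the transcripts of other tissues. Hepatocyte markers (10 genes) took at most 0.0104% of FPKM in any Control library. The GC libraries held 0.0794% to 0.684% and the ICB libraries 0.0335% to 0.208% of these transcripts, while Combination 1, 2 and 3 held 0.707%, 13.4% and 5.26%. Small intestinal markers took 0.868% in Combination 1, and skeletal muscle markers took 0.200% in Control 2 and 0.587% in GC 2. Results that rest on these libraries are given with and without them.

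Ribosomal protein mRNAs made up a large part of every library but one. Their share of summed FPKM was 39.3%, 28.2% and 35.4% in Control 1, 2 and 3. It was 31.3%, 21.8% and 26.3% in GC, and 33.3%, 37.3% and 33.3% in ICB. In Combination it was 24.1%, 6.83% and 17.6%. All 3 Combination libraries lay below all Control and all ICB libraries, while Combination 1 lay above GC 2. Group means were 34.3% ± 5.63 in Control, 34.6% ± 2.30 in ICB, 26.5% ± 4.75 in GC and 16.2% ± 8.73 in Combination (SD, n = 3). In the order of the means, from ICB over Control and GC to Combination, the ranges of each pair of neighbours overlapped.

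**Figure D1:**
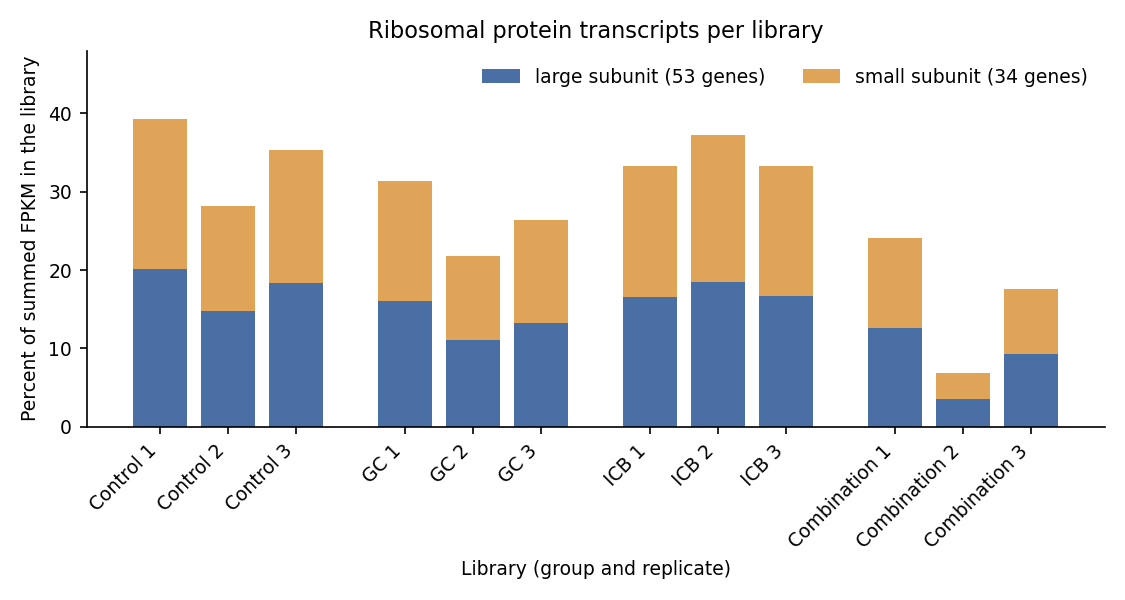
Percent of summed FPKM taken by the 53 large subunit (blue) and 34 small subunit (orange) ribosomal protein genes, stacked, in each of the 12 libraries. Combination 2 stands lowest at 6.83% and Control 1 highest at 39.3%, and the blue and orange parts are of nearly equal height in every library.

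The subunits kept nearly the same proportion throughout. Small subunit genes gave between 47.4% and 48.8% of the members' FPKM in Control, between 49.0% and 49.8% in GC, between 49.7% and 50.3% in ICB and between 47.3% and 47.95% in Combination, so the proportion moved by only a few percentage points while the total moved from 6.83% to 39.3%. The ICB and GC libraries all lay above the Control and Combination libraries in this proportion. FPKM corrects for transcript length, but listed levels also depend on how reads were shared among near-identical loci, so comparisons between genes are rough. Rpl26, for example, was listed at a mean of 0.406 FPKM and its copy Gm15772 at 2997 FPKM. With that limit, the small subunit genes had the higher listed levels, with a median over genes of 2286 FPKM against 1289 FPKM for the large subunit.

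The highest mean levels belonged to Rps12 (7970 FPKM), Rpl12 (5991), Rps21 (5491), Rpl32 (5409), Rpl41 (5246) and Rpl13a (5058). Rps12, Rps21 and Rpl12 encode proteins of the 40S, 40S and 60S subunits, Rpl32 and Rpl13a are further 60S proteins, and Rpl41 encodes the very small, basic 60S peptide. Members were 32 of the 50 genes and 67 of the 100 genes with the highest mean FPKM. The lowest canonical genes that were tested were Rps15a, with a mean of 156 FPKM, Rpl29 and Rpl15. These had 6, 27 and 12 near-identical copies among the annotated transcripts, and the part of the copies in these levels was not tested. The lowest members were Rpl7l1, Rps4l, Rpl3l, Rpl26, Rpl39l and Rpl10l, of which all but Rpl26 are second genes.

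The genes moved together from library to library. The median log2(FPKM + 1) over the canonical genes was 11.37, 10.71 and 11.23 in Control, 10.87, 10.16 and 10.64 in GC, 10.85, 11.20 and 10.93 in ICB, and 10.53, 8.78 and 9.95 in Combination. This is a range of 2.59 on the log2 scale, or 6.0-fold. Around that library median, a single canonical gene had a median SD of 0.19 over the 12 libraries, against an SD of 0.71 for the library median itself. The SD was under 0.25 in 62 of the 76 canonical genes tested, and as small as 0.09 for Rpl27a. It was over 0.5 in only 2, Rps27 (4.01) and Rpl34 (0.54). Both share nearly all their sequence with another locus, as described below. That does not set them apart, since 79 of the 85 members searched had a near-identical copy, among them Rpl27a with 11. Combination 2 was the lowest library for 75 of the 76 genes, and Combination 2 and 3 were the 2 lowest for 73.

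The levels were lowest after the combined treatment. Against Control, 82 of the 84 members tested were lower in Combination and 2 were higher, with a median log2 difference of -1.35 (2.55-fold lower) against -0.29 over all 12765 genes tested. The range over the canonical genes was -1.78 to -0.74. Large and small subunit genes gave similar medians, -1.33 over 45 and -1.41 over 31 canonical genes. In limma with Benjamini-Hochberg adjustment over all genes, however, only 1 member passed the threshold of 0.05. Of all genes tested, 3.95% were called, 0.4% lower and 3.55% higher. Without adjustment, 75 of the 84 members had p under 0.05, against 26.3% of all genes. In 53 members every Combination library lay below every Control library, against 13.2% of all genes, and in 1 (Rps4l) every one lay above, against 9.74% of all genes. In bulk tissue, fewer cells of a type and less of this RNA per cell cannot be told apart.

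**Figure D2:**
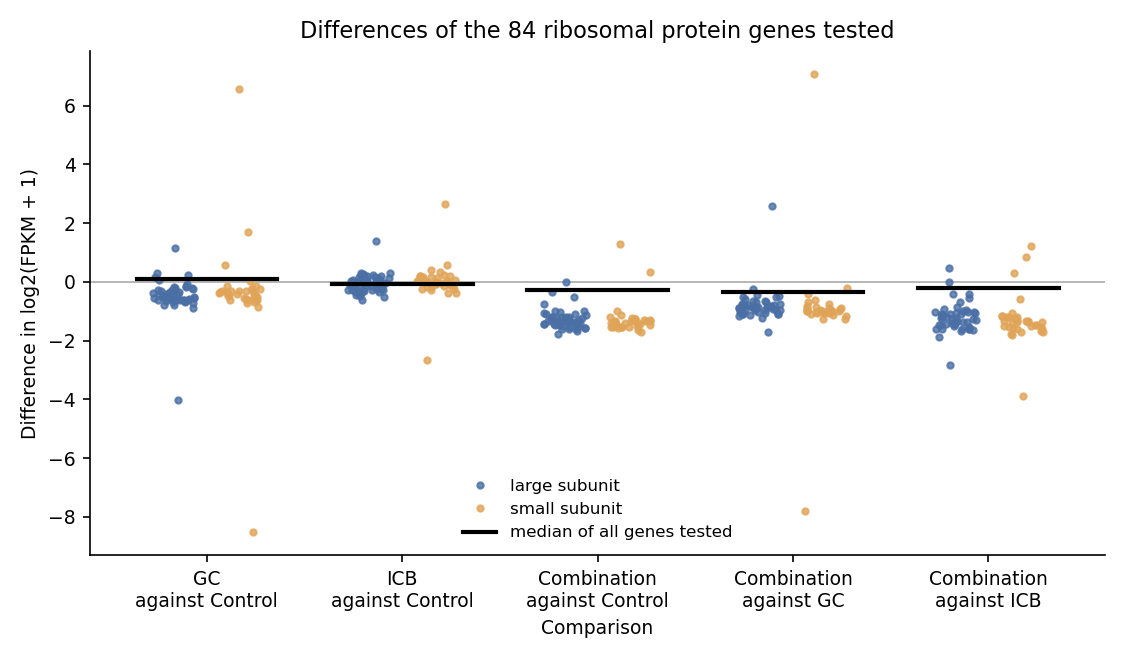
Difference in log2(FPKM + 1) of each of the 84 ribosomal protein genes tested in 5 comparisons, with large subunit genes in blue and small subunit genes in orange, and the median of all genes tested as a black line. Most points lie below the black line in the 3 comparisons of Combination, with medians of -1.35, -0.93 and -1.33, and the isolated points are mainly Rps27, Rps27rt and Rpl37rt.

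The member that passed was Rps4x (chrX:102184941-102189394, - strand, GRCm38), the X-linked gene of a 40S protein. Its level was 2107, 1657 and 1886 FPKM in Control and 1041, 350 and 736 FPKM in Combination, with no overlap. GC libraries held 1153, 889 and 1121 FPKM and ICB libraries 1428, 1618 and 1316 FPKM, so both also lay below every Control library. Rps4x fell by 1.54 ± 0.36 on the log2 scale between Control and Combination (SE, limma, adjusted p = 0.0388). Several members with larger differences, and larger SEs, missed the threshold.

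Among those, Rpl12, a 60S protein of the stalk base, held 10340, 6501 and 9081 FPKM in Control and 5563, 836 and 3249 FPKM in Combination, a difference of -1.78 ± 0.57 (limma, adjusted p = 0.0966). Rps7, a 40S protein that also binds Mdm2, differed by -1.70 ± 0.48 (adjusted p = 0.0739) and Rpl5, which joins the 5S ribosomal RNA, by -1.67 ± 0.51 (adjusted p = 0.0889, both limma). Rps10 and Rpl35, of the 40S and 60S subunits, differed by -1.63 and -1.60. In none of these 5 genes did the 2 groups overlap. At the other end, Rpl34 had the smallest canonical difference, -0.74, followed by Rpl41, Rps2 and Rpl7a at -0.99 each.

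Rps7 held 3057, 1819 and 2965 FPKM in Control and 1403, 332 and 1020 FPKM in Combination. Rpl5 held 1656, 1044 and 1930 FPKM in Control and 769, 200 and 662 FPKM in Combination. The lowest value of each came from Combination 2, and the lowest Control value of each from Control 2. The same order was found in the most abundant member, Rps12, at 9872, 6193 and 10580 FPKM in Control and 6880, 1291 and 3748 FPKM in Combination, where Combination 1 lay above Control 2.

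How many members were called depended on 1 library. Combination 1 had the highest level of the 3, and without it 77 members were called, 76 of them lower, against 15.2% of all genes called lower in the same fit. That fit rests on Combination 2 and 3, the libraries richest in hepatocyte transcripts (13.4% and 5.26% of FPKM). Without Combination 2 the median difference was -0.81 in place of -1.35, and the median over all genes was -0.046 in place of -0.29. Leaving out any of the 9 libraries of the other groups, or Combination 3, gave 0 called members.

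The hepatocyte markers moved with the same libraries. All 10 rose in Combination against Control (limma, adjusted p under 0.05 for each), among them Apoa1 by 9.74 ± 1.06 (adjusted p = 0.000553) and Apob by 5.85 ± 0.69 (adjusted p = 0.000839), 2 apolipoproteins of the liver. In Control, 7 of the 10 markers were above 0 in every library, and Cps1, Fgb and Cyp2e1 were each listed at 0 in at least 1. The mean log2 of the list lay between 0.40 and 2.02 in Control, between 4.56 and 7.38 in GC and between 3.28 and 5.46 in ICB. It was 5.55, 11.29 and 9.96 in Combination 1, 2 and 3, and the last 2 were the libraries lowest in ribosomal protein mRNA. With the mean of this list as a covariate, 0 members were called (196 of the 12765 genes were), and their median difference was 0.00 rather than -1.35. The median over all genes also rose in that fit, from -0.29 to 0.42, so the members still lay below it. The list mean did not overlap between Control and any other group, so in such a fit list and treatment cannot be told apart. Taking the tissue lists and the ribosomal precursor RNA Rn45s out of the total left the share at 24.6%, 7.96% and 18.6% in Combination and at 28.3% to 39.5% in Control. Only the listed genes were taken out and other transcripts of these tissues stayed in the total, so these shares cannot account for all of that RNA. The part of hepatocyte RNA in the difference was not tested beyond these values.

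**Figure D3:**
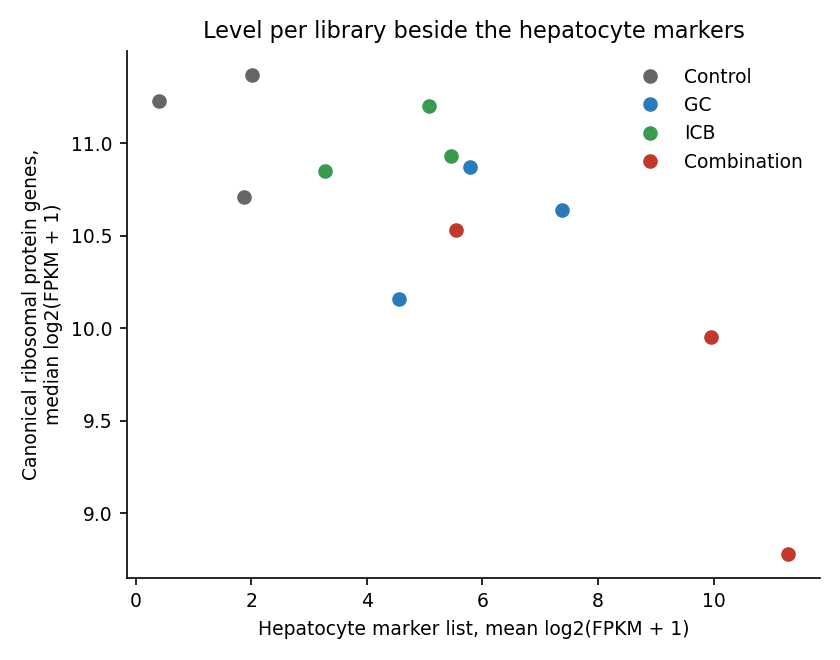
Median log2(FPKM + 1) of the canonical ribosomal protein genes (vertical axis) against the mean log2(FPKM + 1) of the 10 hepatocyte markers (horizontal axis), 1 point per library, coloured by group. Combination 2 and 3 lie at the lower right (11.29 and 8.78, 9.96 and 9.95), and the Control libraries at the upper left.

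The difference from ICB was about as large. Against ICB alone, 80 of 84 members were lower in Combination, with a median of -1.33 (2.51-fold lower) against -0.21 over all genes. In 73 members all Combination libraries lay below all ICB libraries, against 10.1% of all genes, and in 0 all lay above, against 9.47%. The 11 exceptions were Rpl29, Rpl34, Rpl7a, Rpl8, Rps2 and Rps27 among the canonical genes, and Rpl36al, Rpl3l, Rpl7l1, Rps27l and Rps4l among the second genes. No member passed the adjusted threshold in limma, where 2.24% of all genes were called, 0.188% lower and 2.05% higher, while 73 had unadjusted p under 0.05 against 20.5% of all genes. The smallest p belonged to Rps23, a 40S protein of the decoding centre. It stood at 3740, 4542 and 3537 FPKM in ICB and 2145, 575 and 1465 FPKM in Combination, a difference of -1.68 ± 0.45 (limma, adjusted p = 0.0797). Rpl5, Rps7 and Rps21 followed, with differences of -1.86, -1.70 and -1.80 and adjusted p of 0.0866, 0.0958 and 0.0974 in limma. Without Combination 1, 76 members were called, all lower, against 7% of all genes called lower in that fit. Without Combination 2 the median was -0.79, against 0.048 over all genes, and 0 members were called (145 of 12699 genes were). The hepatocyte list had a median difference of 4.68 with 4 of 10 called. With it as a covariate the median of the members was -0.55, against 0.23 over all genes.

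The difference from GC was smaller. Against GC alone, 82 of 84 members were lower in Combination, with a median of -0.93 (1.91-fold lower) against -0.36 over all genes, and 28 had unadjusted p under 0.05 against 16.5% of all genes. The groups overlapped in most members: all Combination libraries lay below all GC libraries in 5 members (Rpl11, Rpl23, Rpl3l, Rps26 and Rps27rt), against 14.2% of all genes, and above them in Rps27 alone, against 4.16%. Of the 5, Rpl3l was near 0, at 2.38, 9.54 and 0.837 FPKM in GC and 0.669, 0 and 0.177 FPKM in Combination. It reached the mean of 1 FPKM only through the GC libraries, so its separation from them carries no weight. Rps27rt alone was called in limma, where 0.666% of all genes were called, 0.0235% lower and 0.642% higher, and its values are given with its copy below. Without Combination 1, 62 members were called, 61 lower and Rps27 higher, against 16.1% of all genes called lower and 8.87% higher (24.9% in all) in that fit. Without Combination 2 the median was -0.37, against -0.108 over all genes, and 0 members were called (39 of 12699 genes were). With the hepatocyte covariate the median was -0.39, against -0.05 over all genes. Markers of other cell types also differed in this comparison. The hepatocyte list had a median difference of 3.10 with 1 of 10 called, the 6 fibroblast genes one of -1.95 with 5 lower without overlap and 0 called, and the 5 immune genes tested one of -1.04 with 0 called. Their part in the result was not tested.

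In GC tumours the shift was smaller still. There, 75 of the 84 members were lower than in Control and 9 higher, with a median of -0.44 (1.36-fold lower) against 0.09 over all genes. In limma 0 members were called (0.00783% of all genes were), and 5 had unadjusted p under 0.05 against 9.86% of all genes. In 19 members, 15 of them canonical large subunit genes and 4 canonical small subunit genes, all GC libraries lay below all Control libraries, against 9.29% of all genes. In Rps27rt and Rps4l all lay above, against 18.6% of all genes. Rpl10, the 60S protein that joins the subunit late in its assembly, stood at 1894, 1526 and 1948 FPKM in Control and 1269, 798 and 1131 FPKM in GC. Its difference was -0.77 ± 0.32 (limma, adjusted p = 0.460). Without GC 2 the median was -0.28, against 0.045 over all genes. All 10 hepatocyte markers were higher in every GC library than in every Control library (median difference 4.93, 0 called). With their mean as a covariate the median of the members turned to 0.37, against 0.47 over all genes. The muscle-rich libraries Control 2 and GC 2 were each the lowest of their group in ribosomal protein share, at 28.2% and 21.8%, and the part of muscle or hepatocyte RNA in the shift was not tested beyond these values.

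In ICB tumours the members were divided in direction. Against Control 37 members were higher and 47 lower, with a median of -0.03 against -0.06 over all genes. In limma 0 members were called (0% of all genes were), and 0 had unadjusted p under 0.05 against 1.75% of all genes. The groups were separated in 5 members, Rpl29, Rpl4, Rpl7a, Rps2 and Rps4x, all lower in every ICB library, against 4.67% of all genes. In 0 members were all ICB libraries higher, against 4.65% of all genes. Rpl29, a 60S protein, held 360, 267 and 294 FPKM in Control and 205, 199 and 195 FPKM in ICB, a difference of -0.61 ± 0.36 (limma, adjusted p = 1). Rn45s, the ribosomal precursor RNA, was highest in ICB 2 and 3, at 4.14% and 1.42% of FPKM, and these libraries had ribosomal protein shares of 37.3% and 33.3%. The hepatocyte list had a median difference of 3.34 with 0 called. With it as a covariate the median of the members was 0.50, against 0.23 over all genes.

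The interaction tested whether the difference that came with GC was the same with and without ICB. Its median over the members was -0.84, against -0.26 over all genes, with 80 of 84 negative. Without Combination 2 it was -0.33, against -0.013 over all genes. In limma 0 members were called (0.0157% of all genes were), and 4 had unadjusted p under 0.05, against 8.09% of all genes: Rps27, Rps27rt, Rps21 and Rps12. Rps21, a 40S protein, stood at 7984, 3380 and 5669 FPKM in Control, 6905, 4131 and 5693 in GC, 7433, 8965 and 7533 in ICB and 4474, 956 and 2768 in Combination. The GC and Control ranges overlapped, while Combination lay below ICB, and the interaction was -1.83 ± 0.73 (limma, adjusted p = 0.583). Rps12 gave -1.63 ± 0.73 (limma, adjusted p = 0.609). The 3 members with the largest interaction, of either sign, were Rps27rt, Rps27 and Rps21. These comparisons share their libraries, so their values for the members are not independent of each other.

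Of the 8 second genes tested, 6 were lower and 2 higher in Combination than in Control, with a median of -0.43 and 0 called. Rps27l (chr9:66946086-66949516, + strand, GRCm38), a p53-responsive paralog of Rps27 whose coding sequence is 76.2% identical to it, held 226, 332 and 527 FPKM in Control and 556, 379 and 382 FPKM in Combination. Its difference was 0.34 ± 0.32 (limma, adjusted p = 0.487), and the groups overlapped. In GC it stood at 493, 510 and 505 FPKM and in ICB at 283, 402 and 360 FPKM. Rpl36al (chr12:69182731-69184083, - strand), a retrocopy of Rpl36a with 87.7% identity, held 642, 496 and 758 FPKM in Control and 770, 339 and 462 FPKM in Combination, a difference of -0.33 ± 0.31 (limma, adjusted p = 0.481). Rpl7l1, a paralog of Rpl7 that works in ribosome assembly, held 28.3, 53.1 and 55.5 FPKM in Control and 63.4, 34.5 and 38.0 FPKM in Combination, a difference of 0.00 ± 0.31. Its canonical partner Rpl7 held 1920, 1334 and 1601 FPKM in Control and 1164, 446 and 843 FPKM in Combination. The level of Rpl7l1 overlapped between these groups and that of Rpl7 did not.

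Rps4l (chr6:148354656-148355598, + strand), annotated as a transcribed pseudogene related to Rps4x with 79.9% identity, was present at a few FPKM. Its level was 2.13, 1.49 and 2.58 FPKM in Control, 7.62, 14.3 and 6.17 in GC, 2.62, 2.18 and 4.83 in ICB and 4.93, 13.0 and 3.78 in Combination. It was higher in every GC and every Combination library than in Control, and differed by 1.69 ± 0.43 in GC (limma, adjusted p = 0.184) and by 1.28 ± 0.43 in Combination (adjusted p = 0.103). Rps4x, its canonical partner, was lower in both. Rpl22l1 (74.2% identical to Rpl22 over the part that aligned), in contrast, followed the canonical genes at -1.18 ± 0.49 in Combination (limma, adjusted p = 0.160), as did Rpl22 at -1.20 ± 0.43 (adjusted p = 0.124).

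Rpl3l, Rpl10l and Rpl39l were at or near 0 in most libraries. Rpl3l, the form of Rpl3 known from striated muscle, held 3.49 FPKM in Control 2 and 9.54 FPKM in GC 2, the libraries with muscle transcripts, and at most 2.38 FPKM elsewhere. Its difference in Combination was -0.52 ± 0.69 (limma, adjusted p = 0.621). Rpl10l and Rpl39l, known from the testis, did not exceed 0.0567 and 0.891 FPKM in any library.

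Set against the median of the canonical genes in the same library, a scale chosen after the values were seen, 4 second genes rose in Combination against Control. On this scale Rps4l rose by 2.62 ± 0.69, Rps27l by 1.69 ± 0.38, Rpl7l1 by 1.35 ± 0.45 and Rpl36al by 1.01 ± 0.25 (limma, adjusted p = 0.0168, 0.0105, 0.0343 and 0.0140). On the same scale 34.2% of all genes tested were called higher and 0.0313% lower, with a median of 1.06 over all genes, so the 4 genes moved like a large part of the transcriptome. Against ICB on that scale 6 members were called higher, the same 4 with Rpl7a and Rps2, against 29.1% of all genes, and 4 were called lower, against 0.094% of all genes (29.2% in all). These 4 were Rps12, Rps21, Rps23 and Rpl13a, with differences from the canonical median of -0.54, -0.56, -0.45 and -0.42. Centring on the canonical members put the median over all genes at 1.03 in that comparison, so few other genes could be called lower. The share of 0.094% is therefore no like background for these 4 members. In GC against Control on that scale Rps27rt alone was called, against 0.141% of all genes.

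**Figure D4:**
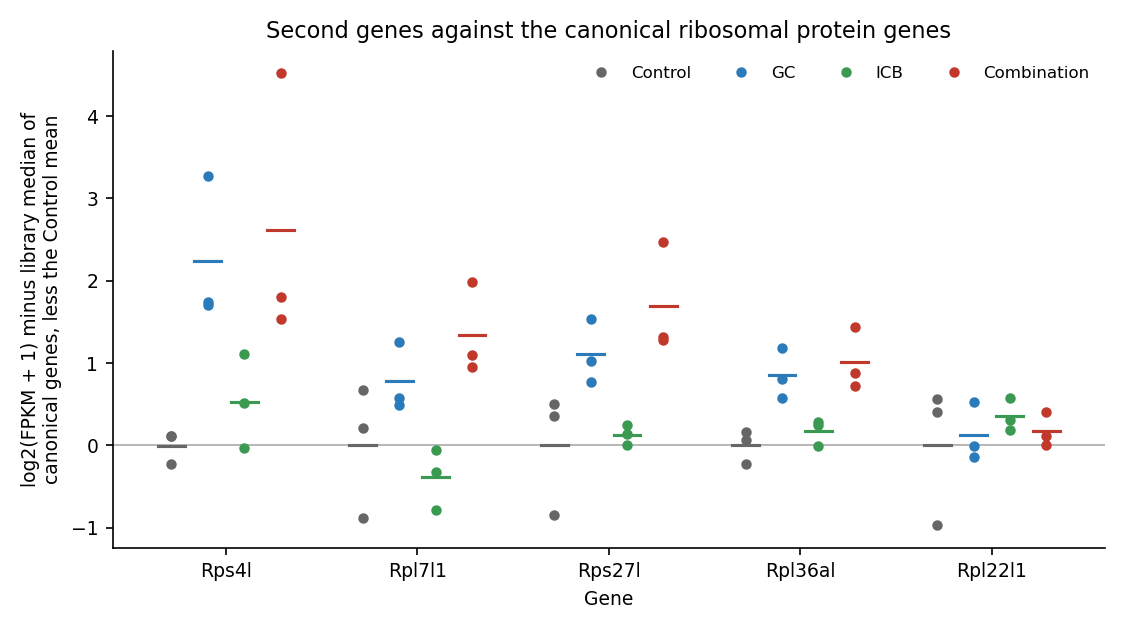
log2(FPKM + 1) of 5 second genes minus the median of the canonical genes in the same library, with the Control mean of each gene set to 0. Points are libraries and short lines are group means of 3, and in Rps4l, Rpl7l1, Rps27l and Rpl36al all Combination points lie above the Control mean.

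Rps27 and Rps27rt exchanged places between libraries. Rps27 (chr3:90212522-90213651, - strand, GRCm38) encodes a zinc-finger protein of the 40S subunit, and Rps27rt (chr9:114982366-114982739, - strand) is an intronless copy of it. The coding sequences of both are identical over all 252 bases, and the transcripts of 345 and 374 bases share an alignment of 341 bases with 0 mismatches. The coding sequence is printed once, since no base tells the genes apart.
Rps27 and Rps27rt: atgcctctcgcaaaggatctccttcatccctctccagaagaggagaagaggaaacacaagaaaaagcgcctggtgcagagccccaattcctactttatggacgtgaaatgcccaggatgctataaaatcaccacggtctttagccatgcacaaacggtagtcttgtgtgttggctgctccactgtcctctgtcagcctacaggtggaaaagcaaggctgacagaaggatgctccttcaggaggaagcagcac
Rps27 was listed at 10020, 4505 and 7167 FPKM in Control, at 17.7, 18.9 and 16.1 in GC, at 17.1, 9018 and 7993 in ICB and at 4473, 1154 and 3127 in Combination. Rps27rt was listed at 92.5, 35.4 and 56.9 FPKM in Control, at 7345, 4387 and 5320 in GC, at 8039, 69.5 and 87.5 in ICB and at 50.2, 8.70 and 31.2 in Combination. In each library 1 of the 2 genes took between 98.9% and 99.8% of their sum. Rps27rt was the larger in all 3 GC libraries and in ICB 1, and Rps27 in the other 8.

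The tests of these 2 genes carry that exchange. Rps27rt fell by 7.79 ± 1.42 in Combination against GC (limma, adjusted p = 0.0358), and it was also the only member called by the F test over the 4 groups (adjusted p = 0.0478), by which 1.83% of all genes were called. In GC against Control the differences were -8.53 ± 1.81 for Rps27 (limma, adjusted p = 0.153) and 6.58 ± 1.42 for Rps27rt (adjusted p = 0.157). ICB 1 carried a large part of the error. Without that library the differences were the same, their SEs were 0.48 and 0.57, and limma gave adjusted p of 7.75e-05 and 0.0025, where 0.0392% of all genes were called. The interaction was then called for both genes (limma, adjusted p = 0.0167 for each), against 0.0235% of all genes. ICB 1 is the only ICB library in which Rps27rt was the larger, so leaving it out removes the exchange within that group. The smaller SEs and p-values follow from that choice. The sum of both genes behaved like any other member: it differed by -0.31 ± 0.48 in GC against Control (limma, adjusted p = 0.900), and neither the Combination against GC comparison nor the F test then called a member. Its level of 7363, 4406 and 5336 FPKM in GC lay within the Control range of 4540 to 10120 FPKM except for GC 2. With identical sequences, reads cannot be assigned to 1 of the loci by their letters, and which of the genes is listed high is uncertain.

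**Figure D5:**
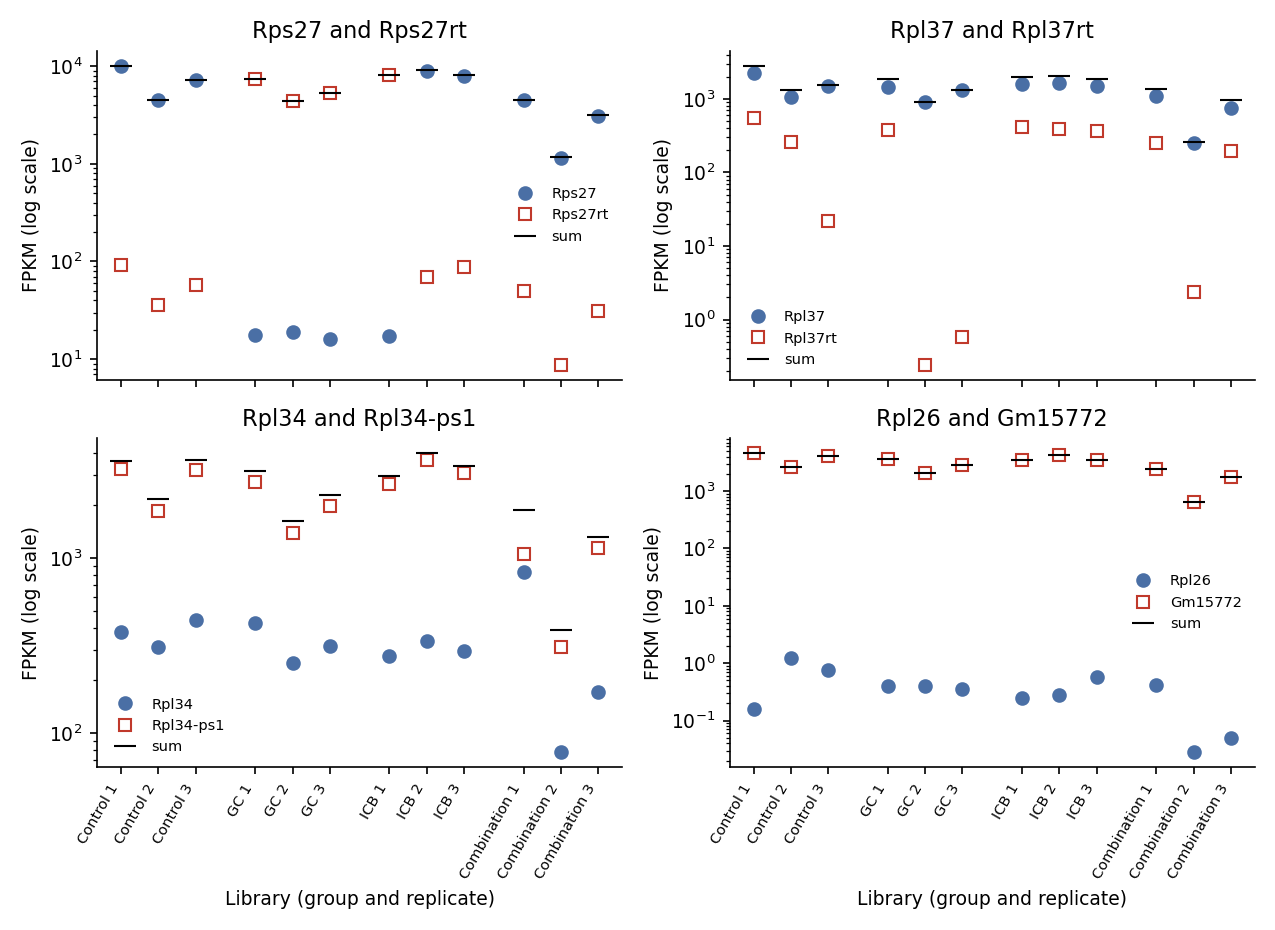
FPKM (log scale) of 4 ribosomal protein genes (filled circles), of a near-identical copy (open squares) and of their sum (black dashes) in the 12 libraries. The circles and squares of Rps27 and Rps27rt swap in GC 1 to 3 and ICB 1 while the sum stays between 1162 and 10120 FPKM, and Rpl37rt drops to at most 21.6 FPKM in 4 libraries.

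Other genes shared sequence in the same way. Of 85 members with a coding sequence to search, 79 had at least 1 other annotated transcript with 95% or more identity over at least 80% of it, with a median of 5 copies and up to 57. Only 17 of the 579 pairs had the copy in the table under its own symbol. For the 3 pairs described next, the stretch around 1 differing base is shown, with that base in capitals and positions counted from 1 at the start of the coding sequence.
Rpl37: ccgtgagggaacaacGccgaaacccaagag
Rpl37rt: ccgtgagggaacaacAccgaaacccaagag
Rpl34: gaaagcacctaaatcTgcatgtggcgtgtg
Rpl34-ps1: gaaagcacctaaatcCgcatgtggcgtgtg
Rpl26: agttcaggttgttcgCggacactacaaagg
Gm15772: agttcaggttgttcgTggacactacaaagg
The substitution between Rpl37 (chr15:5116645-5119140) and the pseudogene Rpl37rt (chr5:115102923-115110268) is G249A, the only one in 291 bases. T132C is 1 of 2 in 351 bases between Rpl34 (chr3:130726831-130730398) and Rpl34-ps1 (chr6:71124610-71124963). C177T is 1 of 2 in 435 bases between Rpl26 (chr11:68901583-68906989) and Gm15772 (chr5:3236431-3236868).

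Rpl37rt was either about 20% of the sum with Rpl37 or nearly absent. It gave 18.5% to 20.6% of that sum in 8 libraries, and at most 1.41% in Control 3, GC 2, GC 3 and Combination 2, where it was listed at 21.6, 0.240, 0.570 and 2.34 FPKM. These are not the libraries in which Rps27rt was high, apart from GC 2 and GC 3. Rpl37 itself, a zinc-binding 60S protein, stayed with the other canonical genes at 1056 to 2285 FPKM in Control and 255 to 1098 FPKM in Combination.

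Rpl34, a 60S protein, was the smaller partner of its copy. It gave 8.40% to 20.0% of the sum in 11 libraries and 44.2% in Combination 1, where it was listed at 831 FPKM against 1051 FPKM for the copy. That level lay above every Control library (309 to 444 FPKM), while Combination 2 and 3 held 77.7 and 172 FPKM, below all of them. Rpl26, a 60S protein that also binds the p53 mRNA, was listed at 0.0280 to 1.21 FPKM, while Gm15772 was listed at 638 to 4610 FPKM, a level like that of a canonical gene. Over the 12 libraries Gm15772 had a Pearson correlation of 0.993 with the mean of the canonical genes.

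The genes with the most similar pattern to the canonical mean, over 12 libraries and by Pearson correlation, were Eef1b2 (0.995), Gm15772, Rpl14-ps1 (0.990), Rps15a-ps6 (0.985), Mnat1 (0.983), Naca (0.982) and Rpl31-ps12 (0.982). Rpl14-ps1, Rps15a-ps6 and Rpl31-ps12 are, like Gm15772, listed copies of members. Eef1b2 is a subunit of the elongation factor that reloads eEF1A, and Naca binds nascent chains at the ribosome. The points share library totals and the groups, so these are descriptions only.

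The other parts of the translation apparatus differed in how far they went with the ribosomal proteins in Combination against Control. Fau and Gnb2l1 (Rack1), which encode ribosomal proteins under other names, had differences of -1.35 and -1.71, and neither was called. The 8 elongation factors had a median of -0.95 with 0 called, among them Eef1a1 (-1.06 ± 0.31, limma, adjusted p = 0.0768), the carrier of aminoacyl-tRNA. The 28 initiation factors had a median of -0.67 with 0 called. The 8 other mRNAs with a terminal oligopyrimidine start had a median of -1.02 with 0 called, with Npm1, a nucleolar chaperone, at -1.48 and Tpt1 at -1.27.

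Host genes of small nucleolar RNAs share that start and encode no ribosomal protein. Over 7 of them the median was -1.33, close to that of the members, and 1 was called. Snhg12, a noncoding host, held 223, 129 and 161 FPKM in Control and 74.4, 16.6 and 42.1 FPKM in Combination, and fell by 2.12 ± 0.48 (limma, adjusted p = 0.0311). Gas5 differed by -1.26 ± 0.39 (limma, adjusted p = 0.0889).

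Genes that build ribosomes, and the ribosome of mitochondria, were nearer to all genes. The 39 ribosome biogenesis factors had a median of -0.59, and the 14 genes of RNA polymerase I, which transcribes ribosomal RNA, a median of -0.58, with 0 called in either list. The 77 mitochondrial ribosomal proteins, encoded in the nucleus and imported, had a median of -0.10 with 28 higher and 49 lower and 0 called. Their share was 0.475% to 0.852% of FPKM in Combination and 0.503% to 0.766% in Control, which overlap. The 15 genes of mTOR, LARP1 and the S6 kinases had a median of -0.47, and the 7 genes of the 5S particle and p53 arm a median of -0.36, with 0 called in either. Cdkn1a, a p53 target, held 110, 37.9 and 34.7 FPKM in Control and 71.8, 100 and 83.5 FPKM in GC, which overlap.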

How the data were processed

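RNA of 12 tumours was sequenced, 3 in each of 4 groups taken from the titles. The deposited table gives FPKM per gene symbol, made by the authors. The submitters' processing notes name FastQC, cutadapt, HISAT2, SAMtools, HTSeq and the build mm10, with no versions, order or roles. How FPKM was computed, and whether counting used strand or reads with several matching loci, is not given in the sources used here, so values of genes that share sequence or overlap are uncertain. Whole reads could not be recovered from the values (at most 17.3% of low-value ratios fell in 1 bin of 0.1 log2 units), so depth and counting error are unknown. All columns were mapped to samples.

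Values were taken as log2(FPKM + 1), which understates changes of low genes. The 12765 genes whose mean reached 1 FPKM were fitted over all 12 samples with group means in limma 3.58.1 (R 4.3.3), with an intensity trend and Benjamini-Hochberg adjustment over all genes, and a threshold of 0.05. Errors of differences are SEs from that fit, and those of group means are SDs. All 12 libraries were also simulated from the gene means and pooled within-group SDs, with independent noise and increases added in GC to some genes of higher level. In GC against Control (12511 genes) the fit recovered 14% of 2-fold, 64% of 4-fold and 90% of 8-fold increases and called 7 unchanged genes. Changes in low genes, decreases and shifts shared by many genes were not simulated. Copies were searched with BLAST 2.17.0 among the transcripts of GENCODE M21 on GRCm38, and start sequences came from RefSeq on GRCm38.p6.

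The members and lists were chosen with earlier results of these data known, and their counts are set beside those of all genes in place of a test of the list. The genes named are the second genes with their canonical partners, members called in each comparison (or the 4 of smallest p), the 6 highest and 6 lowest, the 5 extremes of each sign in Combination against Control, the 3 largest interactions, and, in the other lists, genes called or of smallest p. Gas5, Cdkn1a, Npm1, Tpt1, Apoa1 and Apob were named after their values were seen, as were members given only as exceptions to a count. Replicate numbers are those of the titles. The descriptions number some samples differently, and the labels do not say that either numbering pairs the samples, so the main fit used no block. Alternatives were other pseudocounts, filters, scalings, moderation, weights, covariates and sample sets, and leaving out each sample. Summing copies, scaling on the canonical or the other genes, a block on the description numbers, and leaving out Control 2, GC 2 and Combination 1 together were chosen after seeing the data. One gene of the related lists is not reported here.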

Additional observations from a re-analysis of the deposited data

Results flagged for a closer look

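Rps27rt, the copy of Rps27 with the same coding sequence, differed between GC and Control in one direction and between Combination and ICB in the other. All 3 GC libraries (4387 to 7345 FPKM) lay above all 3 Control libraries (35.4 to 92.5 FPKM), while all 3 Combination libraries (8.70 to 50.2 FPKM) lay below all 3 ICB libraries (69.5, 87.5 and 8039 FPKM, the last being ICB 1). Relative to the median of the canonical genes in the same library, Combination 1 (-4.85) lay above ICB 2 (-5.06), so the groups were then not separated. The interaction was -10.45 ± 2.01 on the log2 scale, and limma's adjusted p of 0.156 missed the threshold. In the sum of Rps27 and Rps27rt the GC libraries (4406 to 7363 FPKM) overlapped the Control libraries (4540 to 10120 FPKM), while the Combination libraries (1162 to 4523 FPKM) still lay below the ICB libraries (8056 to 9087 FPKM).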

How the results depend on the processing

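Counts of called members depended on the setting, and some directions turned. With the hepatocyte covariate the medians of GC and ICB against Control turned from -0.44 and -0.03 to 0.37 and 0.50. Of 394 values for counts, medians and shares under 30 alternatives, 296 stayed close to those reported and 98 moved. A median counted as close if it changed by less than 0.52 log2 units, the within-group SD of the library median. That margin is larger than the medians of GC and ICB against Control themselves (-0.44 and -0.03). Of 824 values for single genes, 700 kept direction and side of the threshold, 46 lost the threshold, 58 gained it and 20 turned. In the sequence GC against Control, ICB against Control, Combination against Control, against GC, against ICB, the interaction and the F test, sample weights called 5, 4, 79, 84, 79, 47 and 84 members, but the weights did not converge (Combination 3 had a weight of 161.8). In the same sequence that fit called 1451, 2453, 6703, 6982, 7549, 4030 and 10048 of all 12765 genes. With the hepatocyte mean as covariate, 1 member was called in GC against Control, 0 in Combination against Control, 0 against GC and 1 in the interaction. Of all 12765 genes, 539, 196, 77 and 111 were called there. The medians were 0.37 (GC against Control), 0.50 (ICB against Control), -0.00, -0.39 and -0.55 (Combination against Control, GC and ICB). In the same order, the medians over all genes in that fit were 0.47, 0.23, 0.42, -0.05 and 0.23. Centred on the canonical median, counts were 1, 4, 2, 10 and 6 (GC against Control, Combination against Control, GC and ICB, F test), with medians of 0.11, 0.00, -0.13 and -0.09 and an interaction of -0.15. The counts over all 12765 genes were 18, 4376, 72, 3728 and 1403. Without Control 2, GC 2 and Combination 1, counts were 74, 12 and 71 (Combination against Control, GC and ICB), 1 (interaction) and 32 (F test), with medians of -2.01 and -1.53 against Control and GC. Of all 12505 genes in that fit, 1648, 1160, 1607, 368 and 1207 were called, in the order of these counts. Within only the groups compared, counts were 2 (GC against Control), 0 (Combination against Control) and 2 (against GC). Over all genes they were 17 of 12422, 89 of 12695 and 3 of 12950. In Combination against Control, 0 members were called with no filter or without the muscle-rich pair, 2 after rescaling to the same sum, 3 after rescaling on the other genes and 6 after quantile scaling, which called 1 against ICB. In that order, these fits called 429 of 18672, 165 of 12674, 629 of 13646, 517 of 12745 and 858 of 12765 genes. Against ICB, quantile scaling called 496 of 12765. Against GC, 0 were called with a pseudocount of 0.1, a mean of at least 10, no filter, centring on the median of all genes, copies summed or without the muscle-rich pair, and the F test called 0 under these (apart from the pseudocount), quantile scaling and rescaling on the other genes. Over all genes these fits called 16, 3, 82, 39, 84 and 20 against GC. Their F tests called 69, 214, 166, 232, 105, 163 and 198, both in the order named. The cause of these changes was not tested.

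The replicate number as a block gave 5 called members in Combination against Control, where 540 of 12765 genes were called, and no other changed count. Same-numbered samples correlated at -0.236 to 0.416, over 0.1 in 8 of 18 pairs, and 6 of 12 samples correlated best with their own number. Pairs with different numbers were not summarised for comparison, so these values cannot decide whether the numbers pair the samples. The descriptions give a second numbering, under which 4 of 13 same-numbered pairs correlated over 0.1 (-0.253 to 0.289), and a replicate block on it gave 0 called members in Combination against Control, with Rps4x at -1.72 (limma, adjusted p = 0.0578).

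Leaving out 1 library gave 0 to 2 called members in GC against Control, 0 in ICB against Control, 0 to 77 in Combination against Control, 0 to 62 against GC, 0 to 76 against ICB, 0 to 2 in the interaction and 0 to 73 in the F test. The medians ranged from -0.63 to -0.28, -0.24 to 0.06, -1.78 to -0.81, -1.37 to -0.37, -1.76 to -0.79 and -1.28 to -0.33 in that order. The fit without Combination 1 called 3322, 3148, 2166 and 1962 of 12630 genes in Combination against Control, GC and ICB and the F test. The fit without ICB 1 called 5 and 3 of 12771 genes in GC against Control and the interaction. Shares ranged from 31.77% to 37.33% (Control), from 24.09% to 28.84% (GC), from 33.28% to 35.27% (ICB) and from 12.21% to 20.86% (Combination). Rps4x lost its call in Combination against Control without any 1 library of Control, GC or ICB or without Combination 3 (adjusted p in limma 0.0578 to 0.122), and kept it without Combination 1 or 2.

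Among single genes, directions turned for Rps27 in ICB against Control (0.28 with copies summed, 0.31 without ICB 1, down to -4.17 without ICB 2) and in the interaction (-1.40 with copies summed). In Combination against Control they turned with the hepatocyte covariate for Rpl12 (0.20), Rpl35 (0.04), Rpl3l (0.83), Rpl36al (0.71) and Rpl7l1 (1.13). Centred on the canonical median they turned for Rpl3l (0.83), Rpl36al (1.01) and Rpl7l1 (1.35), and without Control 2 for Rpl3l (0.14, down to -0.94 without Control 1). Rpl7l1, at 0.00, was 0.12 rescaled to the same sum, 0.13 centred on the median, 0.02 with quantile scaling, 0.13 without the muscle-rich pair, 0.10 to 0.17 without Control 2, Control 3, Combination 2 or Combination 3, and -0.31 without Control 1.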
